A study of Mus musculus with 9 samples.

Results

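The proteasome subunit genes examined here are the 43 gene symbols, of 24062 in the count table, named Psma, Psmb, Psmc or Psmd with a number, or Psme1 to Psme4. Their transcripts were measured by RNA sequencing of whole gastrocnemius, a calf muscle of mixed fibres, from mice aged 3 months on a mixed 129Sve and C57BL/6 background. There were 3 libraries for each of 3 genotypes. The carriers hetX753 (BubR1+/X753) and hetL1002P (BubR1+/L1002P) each have 1 altered copy of Bub1b, the gene of the spindle checkpoint protein BubR1, in an allele tied to mosaic variegated aneuploidy, and wild type (WT) has none. The labels name no treatment and no Cre or transgene, and leave unsaid whether each library had its own animal, so p-values measure only the spread between these libraries, which may be technical. In whole muscle, fewer cells of a type and less RNA per cell cannot be told apart.

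The proteasome is the protease that degrades ubiquitin-tagged proteins, and in muscle it carries out much of the protein breakdown of wasting. Its 20S core is a barrel of outer alpha rings, which gate the channel, and inner beta rings, which hold the active sites: Psmb5 has chymotrypsin-like, Psmb6 caspase-like and Psmb7 trypsin-like activity. Interferon-induced Psmb8, Psmb9 and Psmb10 take the places of Psmb5, Psmb6 and Psmb7 in the immunoproteasome, which favours peptides for class I antigen presentation. The 19S regulatory particle binds, unfolds and threads the substrate, with a ring of ATPases (Psmc1 to Psmc6) and a set of non-ATPase subunits (most Psmd genes), while Psme1 to Psme4 encode other activators of the core. When proteasome activity falls short, the transcription factor Nfe2l1 (Nrf1) induces many subunit genes at once through antioxidant response elements.

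Because many subunit genes share that route of induction, the promoter windows of the members were searched for the core of the element, TGACNNNGC, on both strands, where N is any base. RefSeq windows on GRCm38.p6, each from 250 bases before to 50 after a start, were at hand for 36 of the 43 members (39 windows). The core lay in 6 of these windows (15.4%), against 12.4% of all 32851 windows, so its share among members was near that of promoters in general. The following 60-base stretches, 5′ to 3′ on the gene's strand with the match in capitals, show 4 of the 6 matches and come from 1 subunit of the core, 2 of the 19S particle and 1 assembly chaperone.
Psmb5 (chr14:54618008-54618067, minus strand): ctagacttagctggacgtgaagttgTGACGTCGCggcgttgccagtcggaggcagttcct
Psmc6 (chr14:45329574-45329633, plus strand): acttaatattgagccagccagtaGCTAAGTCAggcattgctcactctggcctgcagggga
Psmd12 (chr11:107479278-107479337, plus strand): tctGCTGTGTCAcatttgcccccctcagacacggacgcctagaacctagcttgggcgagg
Psmd9 (chr5:123228130-123228189, plus strand): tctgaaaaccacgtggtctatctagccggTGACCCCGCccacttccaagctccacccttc
In Psmb5 and Psmd9 the match reads along the gene's strand, with its first base at -47 and -31 from the start, and in Psmc6 and Psmd12 it is the reverse complement, at -227 and -247. The windows of Psmb6 and Psme4 hold the other 2 matches. The core of the interferon-stimulated response element, GAAANNGAA, lay in 6 of the 39 windows (15.4%) against 8.56% of all windows, in Psmb3, Psmb4, Psmc2, Psmd4, Psmd9 and Psme1. Neither core lay in the windows of Psmb8, Psmb9 or Psmb10. The CCAAT box, CCAAT on either strand, lay in 14 windows (35.9%) against 37.4% of all, and in 5 of the 8 windows of alpha subunit genes. Matches of these letters are a description of sequence, not of binding.

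Libraries held 20106833 to 27797765 counted reads in hetX753, 22795669 to 25712368 in hetL1002P and 19768149 to 33977252 in WT. Bub1b had 8, 8 and 5 counts in hetX753, 10, 9 and 2 in hetL1002P and 21, 11 and 16 in WT. All 10 fibre markers of skeletal muscle (such as Acta1 and Ckm) were expressed, at a summed 206215 to 222807 CPM (counts relative to the scaled library total) in hetX753, 217264 to 248091 in hetL1002P and 246649 to 277708 in WT. On the first principal component over all genes, with 39.7% of the variance, WT 3 (at -47.5) and hetL1002P 3 (at -32.5) lay apart from the other libraries, which lay between -9.52 and 28.8. Results on the subunit genes are therefore given with and without WT 3 where it decides them.

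All subunit genes but 2 had enough counts to be tested. The 2 were Psma8, the alpha subunit of testis (2 counts at most in a library, 4 in all), and Psmb11, the catalytic subunit of thymic epithelium (2 at most, 5 in all). Of the 41 tested, the fewest counts in any library were 48, for Psmb9, and the most 11122, for Psmd2, a scaffold subunit that docks ubiquitin-binding shuttles. Per length of transcript, WT levels of the 14 core genes had a median of 93.1 CPM per kb, with Psmb7 the highest at 262 ± 58.6 and Psma2 the lowest at 29 ± 6.73 CPM per kb (SD, n = 3). The 17 genes of the 19S particle had a median of 73 CPM per kb, between 26.4 ± 1.83 for Psmd11 and 164 ± 35.3 for Psmd8, both subunits of the lid. By this measure, subunits that sit in the particle in equal numbers had levels up to 9.06-fold apart in the core and 6.21-fold apart in the 19S particle. These spans depend on the transcript taken for each gene, its longest, which was 2911 bases for Psma2 and 1160 for Psmb7. Without division by length, mean WT levels were 84.3 CPM for Psma2 and 304 CPM for Psmb7. On that scale Psma2 lay above Psma1 (81.2 CPM), Psmb2 (72 CPM) and Psma5 (69.9 CPM). Psmb7 ranked 233rd and Psmb6 275th of 12917 genes by WT level per length. The 3 chaperones that assemble the base of the 19S particle, Psmd5, Psmd9 and Psmd10, had WT levels of 4.15, 9.54 and 7.01 CPM per kb, each below every core and 19S gene.

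**Figure D1:**
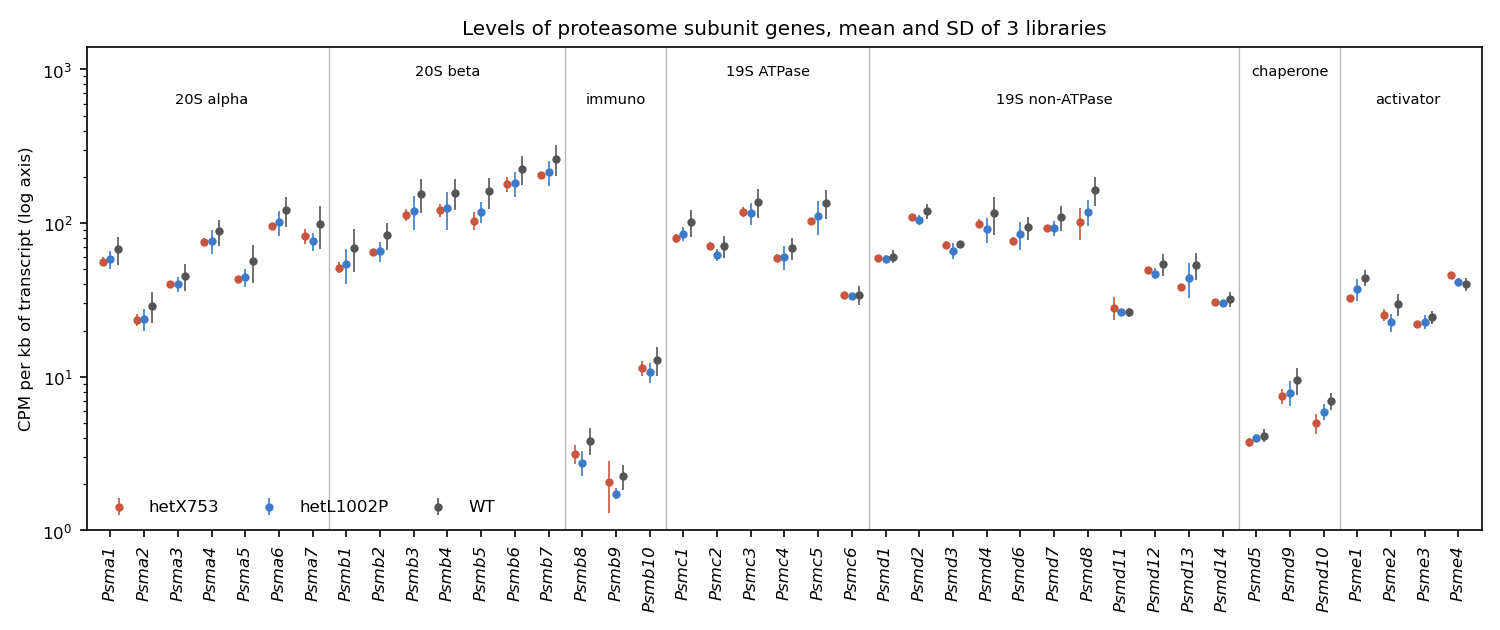
Transcript level of each tested subunit gene in CPM per kb of transcript (log axis), as the mean and SD of 3 libraries in hetX753, hetL1002P and WT, grouped by place in the complex. The immunoproteasome genes and the assembly chaperones lie below the core and 19S genes in every genotype, with Psmb9 the lowest at 2.25 and Psmb7 the highest at 262 CPM per kb in WT.

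Against WT, most subunit genes averaged lower in hetX753 muscle, but no single gene passed the test. Of the 41 genes tested, 38 had a log2 fold change below 0 (92.7%, where 49.6% of all genes were below 0), with a median of -0.25 where the median of all genes was 0.00. The range ran from -0.68 for Psmd8 to 0.19 for Psme4. Short genes were mostly below 0 in general: 1520 of all 1793 genes under 1500 bases, and 19 of 19 subunit genes of that length. At 1500 to 3000 bases it was 2738 of 4235 genes and 17 of 19 subunit genes. At an adjusted p under 0.05, 0 of the 41 were called (edgeR quasi-likelihood test, Benjamini-Hochberg over all 12989 genes), where 0.508% of all genes were. At an unadjusted p under 0.05 there were 9, near the 20.9% of all genes. DESeq2 called 2, where it called 4.93% of all genes, and limma-voom called 0. Without overlap between the libraries of the genotypes, 15 of the 41 lay lower in hetX753 (36.6%, where 15.8% of all genes did) and 1 lay higher (2.44%, where 16.7% of all genes did). Separation was judged on scaled CPM alone. The scaling factors were 1.002, 1.031 and 1.078 in hetX753, above the 0.995, 0.9803 and 0.8864 of WT. WT 3 was the highest WT library for all 41 genes, so each of these 15 separations rests on WT 1 or WT 2. The sizes did rest on WT 3: without it 28 of 41 genes were below 0 (68.3%, against 50% of all genes) and the median was -0.09.

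**Figure D2:**
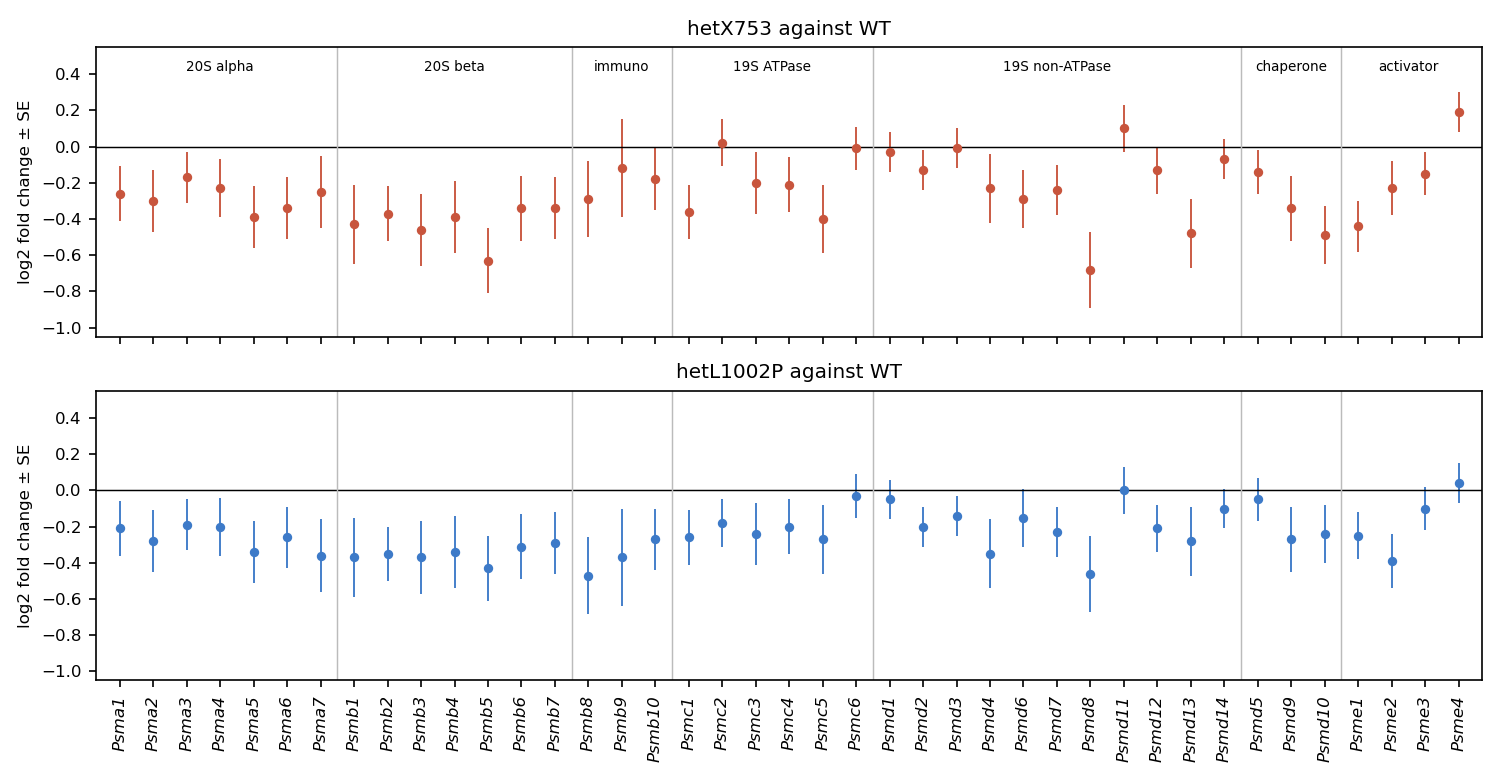
Log2 fold change ± SE of each tested subunit gene in hetX753 (top) and hetL1002P (bottom) against WT, grouped by place in the complex; both share the 3 WT libraries. In hetX753 38 of 41 genes lie below 0, between -0.68 (Psmd8) and 0.19 (Psme4), and in hetL1002P 40 of 41, between -0.47 (Psmb8) and 0.04 (Psme4).

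Within the 20S core, all 14 constitutive genes had log2 fold changes below 0 in hetX753 against WT, and the beta ring lay further from 0 than the alpha ring. The 7 beta genes had a median of -0.39, between -0.63 (Psmb5) and -0.34 (Psmb6), and 6 of them, all but Psmb6, lay lower in every hetX753 library than in every WT library. The 7 alpha genes tested had a median of -0.26, between -0.39 (Psma5) and -0.17 (Psma3), and 2 of them, Psma5 and Psma6, were separated in that way. Of all genes, 15.8% were separated downward in this comparison, a share not split by length. The beta genes had the shortest median transcript of the classes (899 bases), and short genes were mostly below 0 in general. Without WT 3 the medians were -0.19 for the beta genes and -0.09 for the alpha genes.

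Psmb5, the chymotrypsin-like subunit, had the smallest p of all members. Its level was 101, 99.8 and 79.8 CPM in the hetX753 libraries, 98.9, 96.1 and 127 CPM in the hetL1002P libraries and 116, 136 and 181 CPM in the WT libraries. Every hetX753 library lay below every WT library, while hetL1002P 3 lay between WT 1 and WT 2. The log2 fold change of Psmb5 in hetX753 against WT was -0.63 (SE 0.18), with edgeR adjusted p = 0.129, and without WT 3 it was -0.43. DESeq2 called it (log2 fold change -0.64, adjusted p = 0.0357), and so did edgeR without hetL1002P 3 (adjusted p = 0.0482), a fit that called 5.07% of all genes. Psmb5 lies on chromosome 14 from 54614120 to 54617995 (GRCm38.p6), on the minus strand.

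Psmb6, the caspase-like subunit, had 157, 146 and 126 CPM in hetX753, 134, 125 and 176 CPM in hetL1002P and 153, 163 and 226 CPM in WT. Psmb7, the trypsin-like subunit, had 252, 234 and 233 CPM in hetX753, 229, 216 and 299 CPM in hetL1002P and 258, 273 and 382 CPM in WT. In hetX753 against WT, both genes had a log2 fold change of -0.34, with SE 0.18 for Psmb6 and 0.17 for Psmb7 (edgeR adjusted p = 0.293 and 0.271). For both, WT 3 was the highest of the 9 libraries, and without it both stood at -0.15. Psmb2, a beta subunit without an active site in mammals, had 56, 57.3 and 53.8 CPM in hetX753, 53.6, 49.8 and 65.9 CPM in hetL1002P and 63.6, 63.7 and 88.7 CPM in WT, so hetL1002P 3 alone of the carrier libraries reached the WT range.

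The immunoproteasome genes were expressed at a few percent of their constitutive counterparts in every genotype. Psmb9 (chr17:34182030-34187330) and Psmb8 (chr17:34198195-34201454, GRCm38.p6) lie side by side in the major histocompatibility complex, with Tap1, and Psmb10 lies on chromosome 8. Psmb8 had 5.89, 4.46 and 4.99 CPM in hetX753, 3.58, 5.18 and 4.74 CPM in hetL1002P and 5.03, 6.25 and 7.54 CPM in WT. Psmb9 had 2.59, 1.89 and 3.92 CPM in hetX753, 2.12, 2.48 and 2.47 CPM in hetL1002P and 2.96, 2.53 and 3.63 CPM in WT. Psmb10 had 14.8, 16.7 and 13.3 CPM in hetX753, 12.6, 13.3 and 16.3 CPM in hetL1002P and 15.2, 14.6 and 21.1 CPM in WT. The carrier and WT libraries overlapped, except that all hetL1002P libraries lay below WT for Psmb9. Psmb9 rests on 48 to 100 counts per library and overlaps Tap1 on the other strand, whose reads cannot be told apart from its own in a library that does not mark strand.

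In hetX753 against WT, the log2 fold changes were -0.29 (SE 0.21) for Psmb8, -0.12 (SE 0.27) for Psmb9 and -0.18 (SE 0.17) for Psmb10. In hetL1002P against WT they were -0.47 (SE 0.21), -0.37 (SE 0.27) and -0.27 (SE 0.17) for the same genes in that order. None passed the test, with edgeR adjusted p between 0.429 and 0.81 in hetX753 and between 0.579 and 0.618 in hetL1002P. In hetX753 without WT 3, Psmb8 stood at -0.13, and the direction of Psmb9 and Psmb10 turned (0.01 and 0.00). Between the carriers all 3 had positive log2 fold changes in hetX753 against hetL1002P, with a median of 0.18, between 0.09 (Psmb10) and 0.24 (Psmb9), and edgeR adjusted p of 0.893 to 0.941. The Psmb9 value leaned on hetX753 3, at 3.92 CPM. For that gene hetX753 1 (2.59 CPM) lay just above the hetL1002P libraries (2.12 to 2.48 CPM) and hetX753 2 (1.89 CPM) below them.

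Set against the subunit it replaces, per length of transcript, Psmb8 stood at 3.04 ± 0.513% of Psmb5 in hetX753, 2.35 ± 0.544% in hetL1002P and 2.41 ± 0.114% in WT (SD, n = 3 each). Psmb9 stood at 1.19 ± 0.564% of Psmb6 in hetX753, 0.975 ± 0.174% in hetL1002P and 1 ± 0.122% in WT, and hetX753 3, at 1.83%, was the highest library. Psmb10 stood at 5.52 ± 0.674% of Psmb7 in hetX753, 5.04 ± 0.333% in hetL1002P and 4.94 ± 0.25% in WT. For all 3 pairs the libraries of the genotypes overlapped. WT 3, in which the genes of each pair were high, had ratios of 2.3%, 0.948% and 4.88%, near the other WT libraries, so numerator and denominator were high together there. Immune cells carry immunoproteasome at baseline. Summed markers of macrophages were 75 to 75.7 CPM in hetX753, 66 to 126 CPM in hetL1002P and 69.7 to 114 CPM in WT. Those of lymphocytes were 3.09 to 3.92 CPM in hetX753, 1.95 to 4.05 CPM in hetL1002P and 1.55 to 2.63 CPM in WT, and 2 of these 9 markers were abundant enough to test. Of the 11 macrophage markers 10 were in the count table, and Ptprc counts in both sums. No marker of either list in the table was at 0 in all libraries. The part of these cells in the immunoproteasome levels was not tested.

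**Figure D3:**
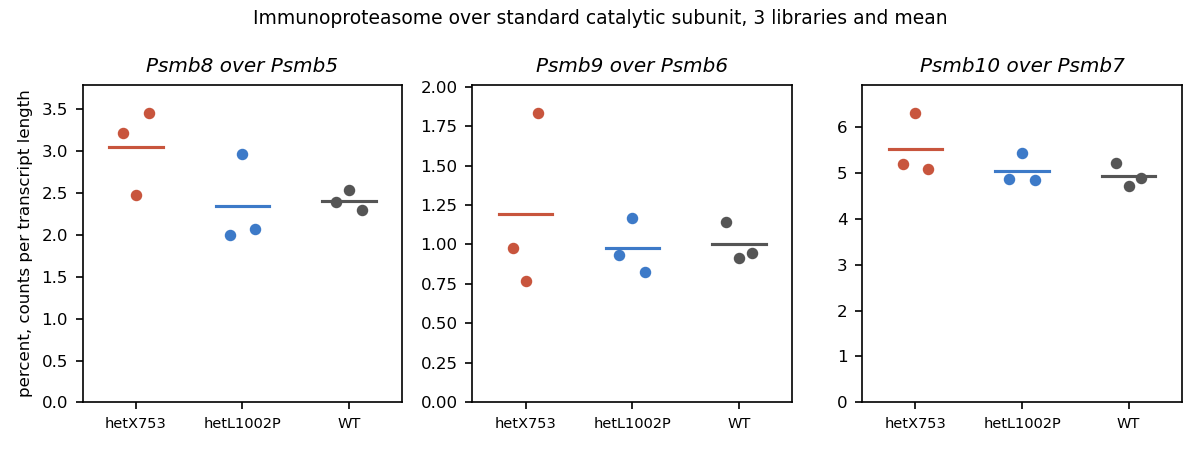
Level of each immunoproteasome gene as a percent of the constitutive subunit it replaces, both per length of transcript, by library (points) and as the mean of 3 libraries (bars) in hetX753, hetL1002P and WT. The ratios lie between 0.766 and 6.29%, and the 3 genotypes overlap in each pair.

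In the 19S particle the genes were closer to 0 and more uneven than in the core. Of the 6 ATPase genes, 5 had a log2 fold change below 0 in hetX753 against WT, with a median of -0.20, between -0.40 (Psmc5) and 0.02 (Psmc2), and Psmc1 and Psmc5 were separated from WT. The 11 non-ATPase genes had a median of -0.13, between -0.68 (Psmd8) and 0.10 (Psmd11), and Psmd6, Psmd8 and Psmd13, all of the lid, were separated. Of all genes, 15.8% were separated downward in this way. Without WT 3 the medians were -0.04 and 0.01. Psmd14, the deubiquitinase of the lid, had a log2 fold change of -0.07 (SE 0.11), and Psmd4, a ubiquitin receptor, one of -0.23 (SE 0.19).

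Among all members Psmd8 had the log2 fold change furthest from 0. It had 239, 218 and 149 CPM in hetX753, 224, 196 and 285 CPM in hetL1002P and 292, 277 and 405 CPM in WT. The hetX753 libraries all lay below WT, with hetX753 3 the lowest of the 9 and WT 3 the highest. In hetX753 against WT it stood at -0.68 (SE 0.21) on the log2 scale, with edgeR adjusted p = 0.143, and -0.49 without WT 3. DESeq2 called it at -0.70 (adjusted p = 0.049). Psmc2, an ATPase, had 136, 120 and 127 CPM in hetX753, 106, 105 and 123 CPM in hetL1002P and 116, 112 and 150 CPM in WT, and its groups overlapped in every comparison.

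The 3 assembly chaperones had a median log2 fold change of -0.34 in hetX753 against WT, from -0.49 (Psmd10) to -0.14 (Psmd5), and of -0.17 without WT 3. Psmd10, also known as gankyrin, is an oncoprotein in liver. It had 8.23, 7.06 and 6.14 CPM in hetX753, 8.77, 7.41 and 9.3 CPM in hetL1002P and 9.73, 8.93 and 11.4 CPM in WT. Its hetX753 libraries all lay below WT, and its log2 fold change was -0.49 (SE 0.16, edgeR adjusted p = 0.162) against WT and -0.25 (SE 0.16, edgeR adjusted p = 0.78) against hetL1002P.

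The 4 activator genes took different directions. Psme1, which with Psme2 forms the interferon-induced PA28 ring, had 35.6, 37.5 and 35 CPM in hetX753, 39.4, 35.5 and 48.5 CPM in hetL1002P and 43.5, 48.9 and 54.9 CPM in WT, with hetX753 below WT in every library. Its log2 fold change in hetX753 against WT was -0.44 (SE 0.14, edgeR adjusted p = 0.137), and leaving out hetL1002P 3 gave a call (edgeR adjusted p = 0.046). Psme2 had 24.7, 26.2 and 21.9 CPM in hetX753, 20.3, 19.7 and 25.1 CPM in hetL1002P and 23.2, 30.1 and 32.1 CPM in WT. For Psme2, hetL1002P 1 and 2 were the lowest libraries, and its log2 fold changes against WT were -0.23 (SE 0.15, edgeR adjusted p = 0.387) in hetX753 and -0.39 (SE 0.15, edgeR adjusted p = 0.579) in hetL1002P.

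Psme3, the nuclear PA28 subunit, had 60.9, 54.9 and 60.4 CPM in hetX753, 57.1, 57.8 and 68.1 CPM in hetL1002P and 62.8, 60.2 and 72.8 CPM in WT, which overlapped throughout. Psme4, which encodes the nuclear activator PA200, had 293, 293 and 305 CPM in hetX753, 250, 283 and 274 CPM in hetL1002P and 262, 235 and 287 CPM in WT. Psme4 was the 1 subunit gene whose hetX753 libraries all lay above those of WT, and above those of hetL1002P too. Its log2 fold change in hetX753 was 0.19 (SE 0.11, edgeR adjusted p = 0.338) against WT and 0.14 (SE 0.11, edgeR adjusted p = 0.82) against hetL1002P. With its transcript of 6491 bases it was also the longest member, and once the dependence on transcript length and GC content was removed it stood at -0.14 against WT.

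Most subunit genes of a library deviated in the same direction, except in WT 1, WT 2 and hetX753 1, where they split. WT 3 stood out. In WT 3 all 41 genes lay above their own mean over the 9 libraries, by a median of 0.47 on the log2 scale, and WT 3 was the highest of all 9 libraries for 38 genes. Of hetL1002P, library 3 was the highest for 36 genes, and 37 lay above their mean there (median deviation 0.12), against 3 and 2 genes in hetL1002P 1 and 2 (medians -0.18 and -0.22). In hetX753 1, 2 and 3, 19, 9 and 5 genes lay above their mean (medians -0.02, -0.08 and -0.17), and in WT 1 and WT 2, 18 and 24 did (0.00 and 0.02). Of the raw counts in each library, subunit genes held 0.451, 0.441 and 0.441% in hetX753, 0.415, 0.426 and 0.463% in hetL1002P and 0.447, 0.451 and 0.548% in WT. On that scale the hetX753 libraries overlapped WT 1 and WT 2, and WT 3 was the highest of all 9.

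**Figure D4:**
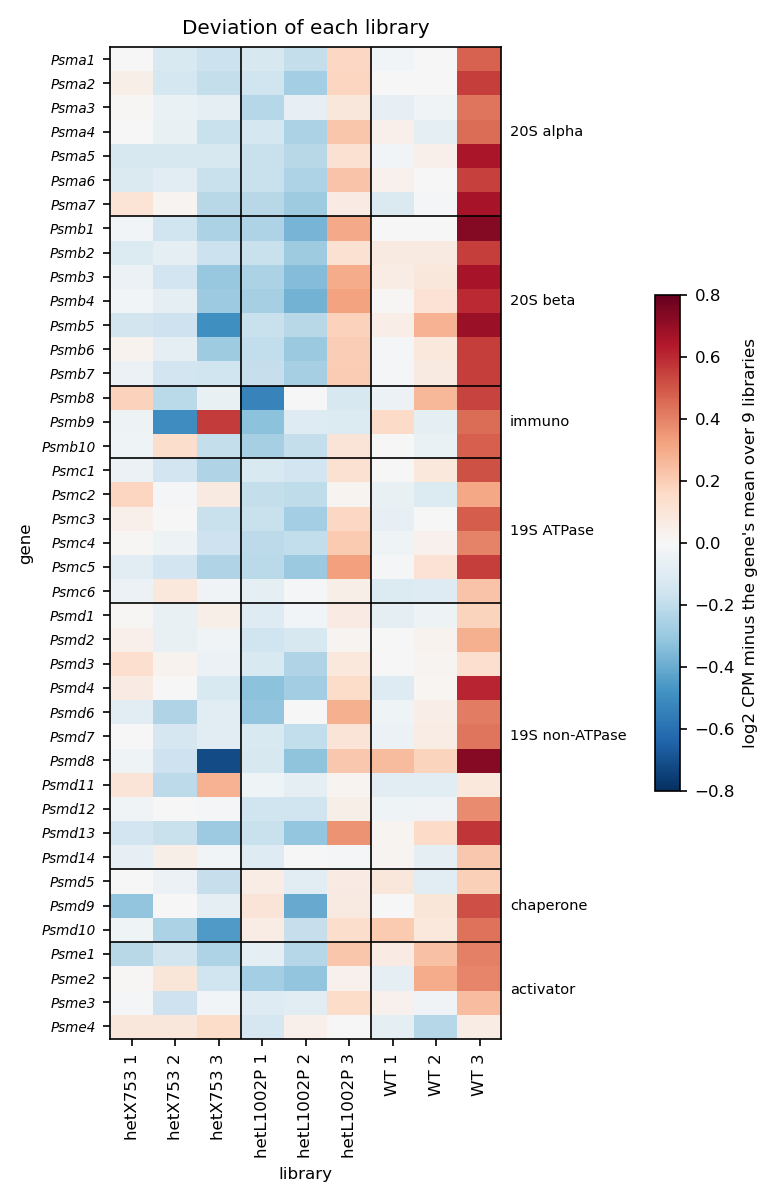
Log2 CPM of each tested subunit gene (down the side, by place in the complex) in each of the 9 libraries (across), minus the gene's mean over all 9; red is above and blue below that mean. The WT 3 column is red for all 41 genes, and hetL1002P 3 differs in the same direction from hetL1002P 1 and 2.

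The spread among libraries of a genotype also differed. The median log2 range over 3 libraries was 0.18 for subunit genes in hetX753, against 0.31 for all genes, 0.37 in hetL1002P, against 0.45 for all genes, and 0.51 in WT, against 0.41 for all genes. Psma5, an alpha subunit, had 53.4 CPM in each of the 3 hetX753 libraries and 57.5, 60.2 and 92 CPM in WT. The equal values in hetX753 are those after scaling, from 1486, 1354 and 1157 counts. The fibre marker sums ran the same way over libraries, highest in WT 3 of all libraries and in hetL1002P 3 of that genotype, and lower in all hetX753 libraries than in all WT libraries. Their part in the subunit levels was not tested.

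Subunit transcripts are short, and fold changes in these libraries followed transcript length over all genes. The median length was 1581 bases for the 41 genes, against 3154 for all genes tested. By class it ran from 899 for the beta ring and 1201 for the alpha ring to 1983 for the non-ATPase genes and 2597 for the assembly chaperones. In hetX753 against WT, the 19 subunit genes under 1500 bases had a median log2 fold change of -0.34, where all 1793 genes of that length had -0.32. The 19 subunit genes of 1500 to 3000 bases had -0.20, where all genes of that length had -0.10, and the 3 longer ones -0.03, where all longer genes had 0.14. In hetL1002P against WT the medians for these lengths, short to long, were -0.29, -0.23 and -0.05 for subunit genes and -0.26, -0.09 and 0.15 for all genes. Across the 41 genes, which share their libraries, fold change and log length had r = 0.57 (rho = 0.52) in hetX753 and r = 0.64 (rho = 0.57) in hetL1002P. With the dependence on length and GC content removed from each library, the median over subunit genes was -0.07 in hetX753 (all genes -0.02) and -0.09 in hetL1002P (all genes -0.01), and 32 and 37 of the 41 genes lay below 0, where 53.3% and 52.1% of all genes did. By class in hetX753, the beta ring then had -0.11, the alpha ring -0.07, the ATPases -0.05, the non-ATPase genes -0.04, the activators -0.13, the immunoproteasome genes 0.08 and the assembly chaperones -0.30. The core as a whole stood at -0.09 and the 19S particle at -0.04, against -0.34 and -0.20 before removal.

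**Figure D5:**
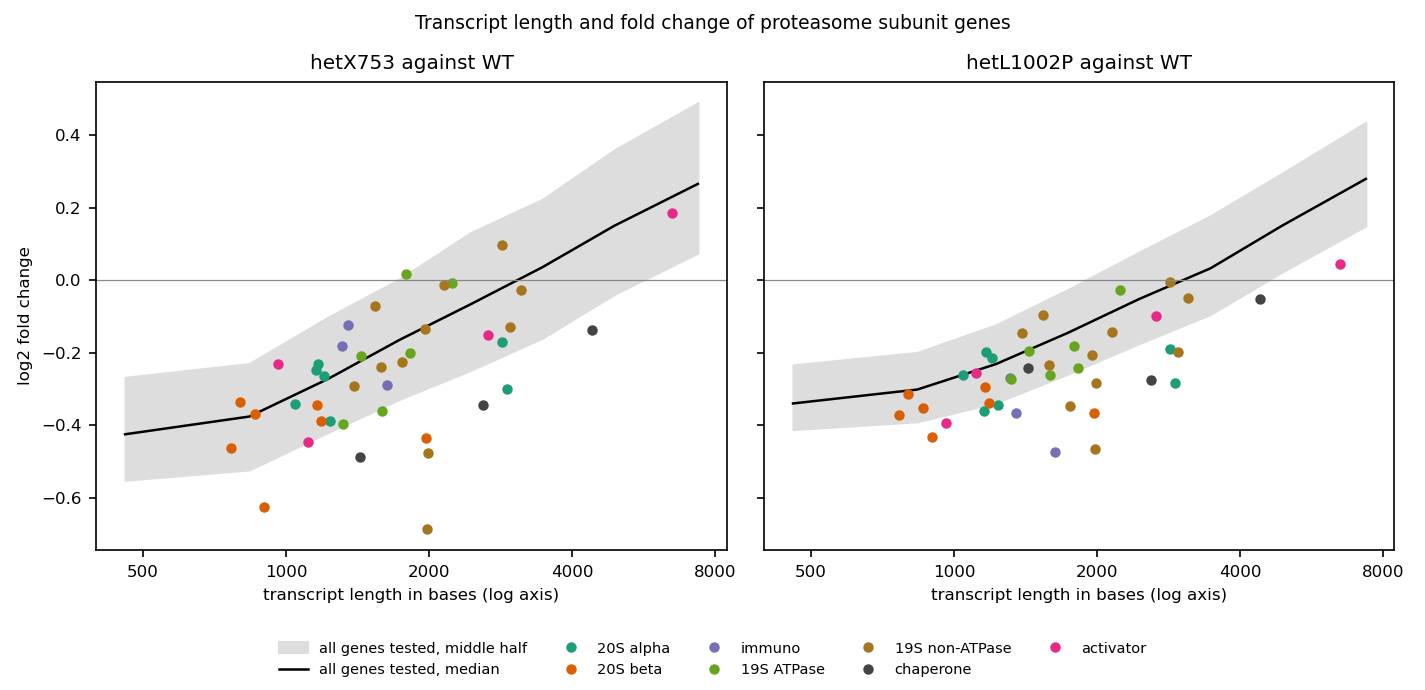
Log2 fold change of each tested subunit gene (points, coloured by place in the complex) against transcript length in bases (log axis), in hetX753 and in hetL1002P against WT, over the median (line) and middle 50% (band) of all genes tested by length. Subunit genes under 1500 bases have medians of -0.34 and -0.29, near the -0.32 and -0.26 of all genes of that length.

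In hetL1002P against WT the subunit genes had a like shift and no call. Of the 41, 40 had a log2 fold change below 0 (97.6%, where 48.1% of all genes did), with a median of -0.26 where that of all genes was 0.01. Under 1500 bases, 1576 of all 1793 genes were below 0, and 19 of 19 subunit genes. At 1500 to 3000 bases it was 2851 of 4235 genes and 19 of 19 subunit genes. The comparison shares its WT libraries with that of hetX753, so the side-by-side values are not independent. At an adjusted p under 0.05, 0 of 41 were called (edgeR, Benjamini-Hochberg), as were 0% of all genes, with 4 at an unadjusted p under 0.05, where 7.96% of all genes were, and 0 by DESeq2 or limma-voom. Only Psmb9 was lower in hetL1002P than in WT without overlap (2.44%, where 3.77% of all genes were lower in this way and 5.67% higher). Medians by class were -0.35 for the beta ring, -0.26 for the alpha ring, -0.37 for the immunoproteasome genes, -0.22 for the ATPases, -0.20 for the non-ATPase genes, -0.24 for the chaperones and -0.18 for the activators. Without WT 3 the median over all 41 was -0.08, and without hetL1002P 3 it was -0.39. Summed markers of adipocytes were 149 to 170 CPM in hetL1002P and 193 to 273 CPM in WT, without overlap, with all 5 abundant enough to test, while in hetX753 they were 205 to 388 CPM. Those of endothelium were 176 to 258 CPM in hetL1002P and 185 to 258 CPM in WT. Their part in the subunit levels was not tested.

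Same-numbered WT and hetL1002P libraries deviated together in these data, most of all WT 3 and hetL1002P 3 (r = 0.516). No label says that the numbers mark a pairing, so the fit with the replicate number as a block is given only as an alternative. On these genotypes alone it called 5.01% of all genes and 6 of the 41 subunit genes, all lower in hetL1002P: Psmb1, Psmb2, Psmb3, Psmb4, Psmb5 and Psmd8, at log2 fold changes of -0.36, -0.35, -0.38, -0.36, -0.43 and -0.47 (edgeR adjusted p = 0.0441, 0.0446, 0.0392, 0.0478, 0.0392 and 0.033). Removing the dependence on length and GC content as well left 0 called, and the smallest edgeR adjusted p was 0.16, for Psmd8. Of these 6 genes, 5 are beta subunits of the core.

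Between the carriers, subunit genes lay on both sides of 0 with all libraries. In hetX753 against hetL1002P, 24 of 41 had a log2 fold change below 0 (58.5%, where 52.6% of all genes did), with a median of -0.02, from -0.25 (Psmd10) to 0.24 (Psmb9). Calls numbered 0 by edgeR, DESeq2 and limma-voom, where edgeR called 0.115% of all genes, and 0 had an unadjusted p under 0.05, as 8.24% of all genes did. Psme4 alone was higher in hetX753 without overlap, and no subunit gene was lower, where 7.44% and 6.98% of all genes were. This balance rested on hetL1002P 3, without which 6 of 41 genes were below 0 and the median was 0.11. The members nearest to the threshold were Psmc2 at 0.20 (SE 0.13), Psmd10 at -0.25 (SE 0.16) and Psme1 at -0.19 (SE 0.14), with edgeR adjusted p of 0.78, 0.78 and 0.796.

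Genes that assemble, induce or feed the proteasome did not pass the test in any comparison either. In hetX753 against WT, 0 genes of the 5 lists were called by edgeR, while 4 of 14 assembly and accessory genes, 4 of 11 genes of the Nfe2l1 route, 2 of 14 ubiquitin and delivery genes, 4 of 10 muscle ubiquitin ligases and 4 of 17 interferon and antigen processing genes had an unadjusted p under 0.05, where 20.9% of all genes did. DESeq2 called 1, 1, 2, 3 and 0 genes of these lists in that order, where it called 4.93% of all genes, and limma-voom called 0. Assembly and accessory genes had a median log2 fold change of -0.18 (11 of 14 below 0), much like the subunits, and the Nfe2l1 route had 0.07 (3 of 11 below 0). In this comparison AI314180 (Ecpas in RefSeq), a scaffold that binds the proteasome, had 294 ± 20.2 CPM in hetX753 and 219 ± 15.8 CPM in WT (SD, n = 3 each), a log2 fold change of 0.42 (SE 0.11, edgeR adjusted p = 0.11). Mafk, a small Maf protein that pairs with Nfe2l1 and Nfe2l2, had 23.1 ± 4.22 CPM in hetX753 and 15.5 ± 0.889 CPM in WT (log2 fold change 0.58, SE 0.16, edgeR adjusted p = 0.121). Nfe2l2 (Nrf2), a factor of the oxidative stress response, was at 0.39 (SE 0.14, edgeR adjusted p = 0.174), and Ube3c, a ligase bound to the proteasome, at 0.30 (SE 0.11, edgeR adjusted p = 0.18).

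Ubb, which encodes a chain of ubiquitin, had 264 ± 18.8 CPM in hetX753 and 359 ± 52.5 CPM in WT, a log2 fold change of -0.44 (SE 0.12, edgeR adjusted p = 0.126). All hetX753 libraries lay below WT for this gene. The list of ubiquitin and delivery genes had a median of -0.11 (9 of 14 below 0). Fbxo32 (atrogin-1), a ligase of muscle wasting, had 217 ± 54.3 CPM in hetX753 and 356 ± 86.1 CPM in WT, a log2 fold change of -0.72 (SE 0.21, edgeR adjusted p = 0.134), with overlapping libraries. Fbxo21 was at 0.51 (SE 0.14, edgeR adjusted p = 0.125), with hetX753 above WT in every library. The median of the 10 ligases was 0.05. Of the interferon and antigen processing genes (median -0.03), Erap1, which trims peptides for class I molecules, was at 0.41 (SE 0.15) and Stat2, a factor of interferon signalling, at 0.56 (SE 0.21), with edgeR adjusted p of 0.179 and 0.18.

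In hetL1002P against WT the same lists gave 0 calls by edgeR, DESeq2 and limma-voom, with medians of -0.23, 0.05, -0.11, 0.02 and -0.23 in the order above. An unadjusted p under 0.05 was reached by 1 of 14, 0 of 11, 0 of 14, 3 of 10 and 6 of 17 genes, where 7.96% of all genes reached it. The class I heavy chain genes H2-D1 and H2-K1 were lower than WT in every hetL1002P library, H2-D1 at 28 ± 2.29 CPM in hetL1002P and 42.8 ± 8.75 CPM in WT, and H2-K1 at 64.4 ± 9.16 CPM in hetL1002P and 87.1 ± 16.2 CPM in WT (SD, n = 3 each). Their log2 fold changes were -0.61 (SE 0.16) and -0.43 (SE 0.15), each with edgeR adjusted p = 0.579. On the log2 scale, Nedd4 stood at 0.40 (SE 0.14) and Trim63 (MuRF1), a ligase of muscle wasting, at -0.35 (SE 0.14). Adrm1, a ubiquitin receptor of the proteasome, stood at -0.33 (SE 0.15) and Psmg4, a core assembly chaperone, at -0.45 (SE 0.24). Ddi2, the protease that activates Nfe2l1, stood at 0.92 (SE 0.42), and all of these had edgeR adjusted p = 0.579. Ubb and Sqstm1, an autophagy receptor, were at -0.27 (SE 0.12) and -0.29 (SE 0.15), and Nfe2l2 at 0.20 (SE 0.14), with edgeR adjusted p from 0.579 to 0.607.

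In hetX753 against hetL1002P the lists gave 0 calls by edgeR, DESeq2 and limma-voom, with medians of 0.02, 0.06, -0.01, -0.10 and 0.21. An unadjusted p under 0.05 was reached by 1 of 14, 2 of 11, 1 of 14, 1 of 10 and 3 of 17 genes, where 8.24% of all genes reached it. Of the 17 interferon and antigen processing genes, 14 had values above 0, where 47.4% of all genes did. The 3 immunoproteasome genes were above 0 too, of which Psmb9 leaned on hetX753 3. Tap1, the peptide transporter gene next to Psmb9, had 4.68 ± 1.39 CPM in hetX753 and 2.76 ± 0.557 CPM in hetL1002P. Its log2 fold change was 0.75 (SE 0.27, edgeR adjusted p = 0.462), and 0.49 without hetX753 3. Exons of Tap1 and Psmb9 overlap on opposite strands, so their values are not independent in these counts. Stat2 was at 0.53 (SE 0.21, edgeR adjusted p = 0.512). Nfyb, a subunit of the factor that binds the CCAAT box, was at 0.41 (SE 0.11, edgeR adjusted p = 0.279). Mafk was at 0.42 (SE 0.15), AI314180 at 0.25 (SE 0.11) and Psmg4 at 0.39 (SE 0.23). Of the ligases, Fbxo21 was at 0.45 (SE 0.14) and Fbxo32 at -0.37 (SE 0.21). These 5 genes had edgeR adjusted p from 0.391 to 0.733.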

How the data were processed

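Per the labels' protocols the total RNA went through the TruSeq RNA v2 kit, whose libraries carry no strand mark. The authors deposited raw whole-number counts per gene symbol. For these, the submitters' processing notes list featureCounts 1.4.6 with Subread, TopHat2 2.0.14 with Bowtie2 2.2.6, and mm10. The annotation was, like the strand setting, not given in the sources used here. Members and gene lists were chosen with earlier results of these data known. The genotype in each title set its group.

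Genes kept by filterByExpr (12989) were scaled by TMM and fitted over all 9 libraries with genotype alone in edgeR 4.0.16 (R 4.3.3, robust quasi-likelihood, 6 residual degrees of freedom), with Benjamini-Hochberg adjustment over all of them; an adjusted p under 0.05 was called. Each log2 fold change is the genotype named first over the second, and its SE is its absolute value over the root of F. CPM are relative to TMM-scaled totals. The fit was tested on simulated counts that had no length trend, outlying libraries or replicate structure, so that test does not cover these features. Alternatives included DESeq2 1.42.0, limma-voom 3.58.1 and, with sva 3.50.0, 1 surrogate variable. Lengths and GC content came from the longest protein-coding GENCODE M21 transcript (98.43% of symbols matched), and promoters and positions from RefSeq GRCm38.p6, the assembly that mm10 names. The length and GC trend was removed by splines (5 degrees of freedom each).

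Deviations from genotype means correlated in the same-numbered WT and hetL1002P pairs (r = 0.285, 0.36 and 0.516; the other 6 pairs -0.454 to 0.198), the bound for pairing being 0.1; the titles do not say what the numbers mark. Same-numbered pairs with hetX753 ran from -0.279 to 0.164, so not all were above that bound. Some pairs of different numbers were above it too, such as hetL1002P 2 with WT 1 (0.198) and hetX753 1 with hetL1002P 3 (0.281). Chi-square per degree of freedom between libraries of a genotype was at least 14.3, so none was a copy of another. Exons of 12 members overlap another gene, 11 of them one on the other strand, which these counts cannot separate.

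Values in every library were given for the 6 catalytic subunits, Psme1 to Psme4 and the 3 members of smallest p in each comparison, and each other list gave its 2 genes of smallest p, of which some are not reported here. Psma5, Ddi2 in hetX753 against WT and the extremes of each class were chosen after their values were seen.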

Additional observations from a re-analysis of the deposited data

How the results depend on the processing

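The count of subunit genes called stayed at 0 in hetX753 against WT except with DESeq2 (2) and, over the fits without 1 library, where it ran from 0 to 2, and in hetL1002P against WT except with the replicate block on those genotypes alone (6). Medians over the subunit genes kept their direction in both comparisons with WT, from -0.36 to -0.09 (hetX753) and -0.39 to -0.08 (hetL1002P) without 1 library. With library totals as the only scaling they were -0.11 and -0.17, where the median of all genes moved to 0.12 and 0.10. Without both WT 3 and hetL1002P 3 they were -0.08 and -0.20, and the median of hetX753 against hetL1002P was 0.11. In hetX753 against WT, 8 of the 41 genes turned direction with the length and GC trend removed, 10 with the replicate block as well, 5 with library totals and 10 without both libraries; in hetL1002P against WT 5, 5, 4 and 2 did. Among genes whose values are given in every library, those that turned in hetX753 were, with the trend removed, Psmb9 (0.13), Psmb10 (0.08), Psme2 (0.07) and Psme4 (-0.14), and with the replicate block on 2 genotypes and the trend removed for Psmb6 (0.01), Psmb9 (0.10), Psmb10 (0.09), Psme2 (0.08) and Psme4 (-0.11). Psmb9 also turned with library totals (0.01), and Psmb9 (0.01) and Psmb10 (0.01) turned without both libraries. In the fits without 1 library Psmb9 ran from -0.44 to 0.09 and Psmb10 from -0.28 to 0.00. In hetL1002P against WT, Psme1 was at 0.00 with the trend removed and 0.00 with the block as well, and Psme4 at -0.25 and -0.24, and from -0.03 to 0.12 without 1 library. Without division by length, WT ratios were 4.36% (Psmb8 over Psmb5), 1.7% (Psmb9 over Psmb6) and 5.58% (Psmb10 over Psmb7). The cause of these turns was not tested. The replicate block changed no other call among subunit genes. Over all genes, calls in hetX753 against WT numbered 66, and from 0 (without WT 1) to 669 (without hetL1002P 3) in the fits without 1 library, 31 with library totals, 640 with DESeq2, 254 with 2 genotypes alone and 340 without both libraries. In hetL1002P against WT they numbered 0, and 635 with the block on those genotypes alone. In hetX753 against hetL1002P they numbered 15, and from 0 (without hetL1002P 1) to 138 (DESeq2) over the alternatives. At 48 to 100 counts a library, Psmb9 is the least precisely measured member.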
